A study of Mus musculus with 5 samples.

Results

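Haptoglobin (Hp), hemopexin (Hpx), the orosomucoids or alpha-1-acid glycoproteins (Orm1, Orm2 and Orm3), serum amyloid P (Apcs), C-reactive protein (Crp) and ceruloplasmin (Cp) are plasma proteins that hepatocytes secrete. The 8 genes, of 17016 named on a 2-colour Agilent array, were found through the RefSeq accession of their probes, and each had 1 of the 41174 non-control probes. The arrays measured liver RNA of male C57BL/6N mice fed an ethanol diet (8 weeks) and given 3 binges of ethanol, each of 5 g per kg. The group has 5 samples, called livers 1 to 5. The labels do not say whether each is a separate animal and give no age, so the p-values reflect sample-to-sample spread alone, and that spread may be technical. Liver cDNA carried Cy5 on every array, and Cy3 carried the purchased Ambion Mouse Assorted Total RNA, for which the labels give liver as tissue and C57BL/6N as strain. Every value below is a log2 ratio of liver over that reference RNA or a signal of 1 channel. Control-diet livers were not analysed here, so no value measures the effect of ethanol.

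These proteins belong to the acute phase response, in which cytokines released during inflammation or tissue injury, chiefly interleukin 6 and interleukin 1, act on hepatocytes through STAT3, C/EBP factors and NF-kB, helped by glucocorticoids. Haptoglobin binds free haemoglobin and hemopexin binds free haem, which keeps both from damaging tissue. Orosomucoids are lipocalins that carry lipids and basic drugs. Apcs and Crp are pentraxins, ring-shaped pattern recognition proteins; in mice Apcs is the strongly inducible one, while Crp takes that place in humans. Ceruloplasmin carries copper and oxidises ferrous iron.

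Upstream sequence is shown for the tested genes that RefSeq's promoter table lists (build GRCm38.p6), because their ratios varied together over the livers. Whether the upstream sequence bears on those ratios was not tested. Windows were found for 6 of the 8 genes, not for Hp or Orm1. Each run below holds the 250 bases before the annotated start, 5′ to 3′ on the strand of the gene, with matches to the motifs searched in capitals.
Hpx (chr7:105600117-105600366, minus strand): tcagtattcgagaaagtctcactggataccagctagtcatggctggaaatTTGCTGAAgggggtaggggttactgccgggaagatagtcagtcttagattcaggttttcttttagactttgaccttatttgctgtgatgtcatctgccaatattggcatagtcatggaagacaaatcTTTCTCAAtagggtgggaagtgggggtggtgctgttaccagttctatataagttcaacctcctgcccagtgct
Orm2 (chr4:63362199-63362448, plus strand): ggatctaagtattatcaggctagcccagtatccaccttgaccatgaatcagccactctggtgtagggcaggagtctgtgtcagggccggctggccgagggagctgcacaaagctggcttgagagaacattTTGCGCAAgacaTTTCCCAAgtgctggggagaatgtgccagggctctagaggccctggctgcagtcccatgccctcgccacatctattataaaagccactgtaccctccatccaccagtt
Orm3 (chr4:63355908-63356157, plus strand): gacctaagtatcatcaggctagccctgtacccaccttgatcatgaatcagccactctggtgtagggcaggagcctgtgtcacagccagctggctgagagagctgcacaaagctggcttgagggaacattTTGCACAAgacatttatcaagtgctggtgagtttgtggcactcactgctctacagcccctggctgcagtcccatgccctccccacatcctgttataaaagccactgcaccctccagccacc
Apcs (chr1:172895055-172895304, minus strand): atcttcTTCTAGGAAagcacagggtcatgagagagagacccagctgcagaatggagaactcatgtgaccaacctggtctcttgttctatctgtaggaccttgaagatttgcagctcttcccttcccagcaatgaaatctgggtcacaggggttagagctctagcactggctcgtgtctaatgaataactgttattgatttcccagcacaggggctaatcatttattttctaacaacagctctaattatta
The motifs, searched on both strands, were TTNNGNAA for C/EBP, TTCNNNGAA for STAT and single consensus strings of 13 bases for HNF1, 10 for NF-kB and 15 for the glucocorticoid receptor. The C/EBP letters occurred in the windows of Hpx, Orm2, Orm3, Crp and Cp, and in 36.8% of the 32851 windows of the same length in the table. The STAT letters occurred in the Apcs window alone among these genes, and in 7.02% of all windows. The HNF1, NF-kB and glucocorticoid receptor strings occurred in none of the 7 windows of the 6 genes (Cp has 2), against 0.00913%, 0.14% and 0.00913% of all windows. In Orm2 the C/EBP match TTGCGCAA lay 120 to 113 bases before the start, and in Orm3 the match TTGCACAA lay 121 to 114 bases before it. Aligned to each other, the Orm2 and Orm3 windows had 218 identical bases over 245 aligned positions (89%). The 3 Orm genes are close paralogs, whose probes can share signal. Whether they did so here was not tested, so the value of each Orm gene is uncertain.

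The 5 arrays were alike in the share of spots above background and less so in marked spots. The array of liver 3 had the most spots marked as outliers, 4.05% against 2.32% to 3.79% on the others. It also had the most Cy5 spots marked non-uniform, 3.72% against 1.83% to 3.35%. The share of spots well above background ran from 77.3% to 81.2% in Cy5 and 69.9% to 78.4% in Cy3, no spot was saturated, and the number of arrays limits the precision. Each array was on a slide of its own and all were scanned on 1 day, so slide and liver cannot be told apart. In whole liver RNA, fewer cells of a type and less RNA per cell cannot be told apart. All 11 tested hepatocyte markers were well above background in Cy5 on each array, and their mean log2 ratio lay between -0.04 and 0.25 over the livers.

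The ratio of each probe was tested against 0 with limma, over 31887 probes that were well above background in at least 1 channel on at least 3 arrays and had at least 3 usable spots. A probe is called higher or lower where its p, adjusted by Benjamini-Hochberg, is under 0.05 and its ratio reaches 2-fold. Of the 8 probes, 6 passed this filter, with 5 usable spots each. Hp and Apcs were called higher, or 2 of 6, and 0 were called lower. All 6 had an unadjusted limma p below 0.05, between 0.000387 for Apcs and 0.0441 for Orm2, as had 22.7% of all tested probes above 0 and 19% below 0. Over all tested probes 1.2% were called higher and 0.32% lower. Among the 811 tested probes at least as bright as the Apcs probe, the dimmest of the 6, the shares were 2.34% and 1.85%. All 6 means lay above 0, with a median log2 ratio of 1.04, against -0.00 over all tested probes, of which 49.5% lay above 0. These genes were chosen with earlier results of these data known.

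**Figure D1:**
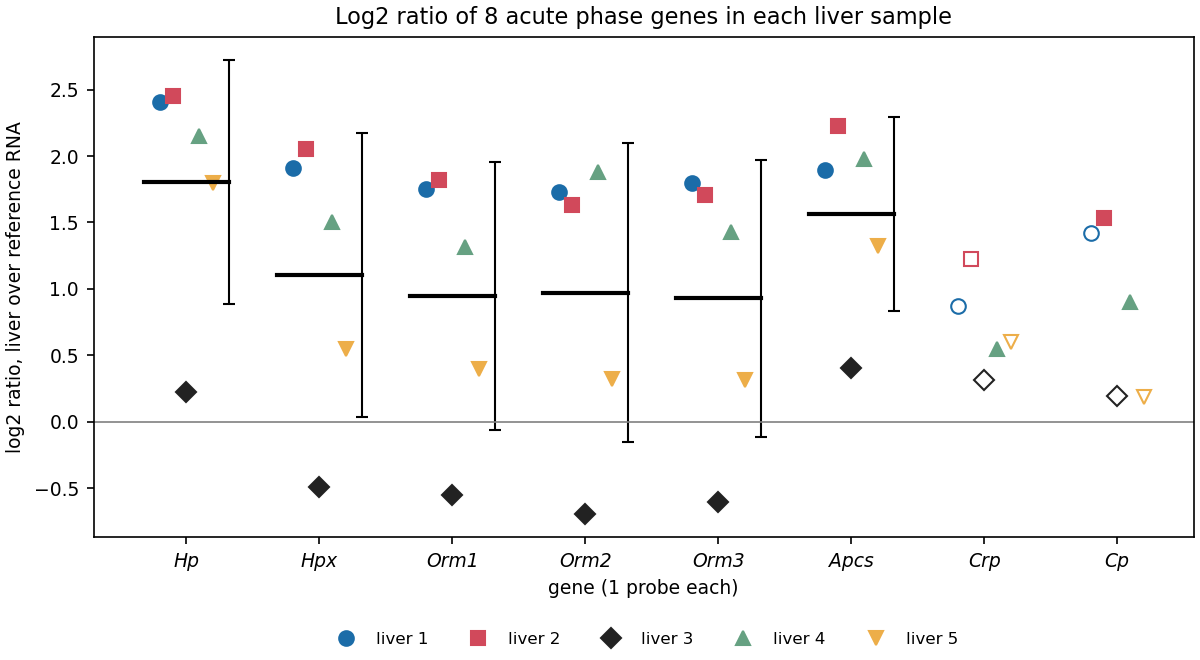
Log2 ratio of liver over reference RNA (vertical axis) for each gene (horizontal axis), 1 point per liver. Filled points are usable spots and open points are spots marked non-uniform, lines and bars give mean and SD over 5 livers for the 6 tested genes, and liver 3 is the lowest point of each of those 6.

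Hp, the haemoglobin-binding protein, had the highest mean of the 8. Its raw Cy5 signal was 224777, 215749, 157089, 199730 and 182126 in livers 1 to 5, against 40516, 38238, 108977, 50835 and 70920 for the reference RNA in Cy3 on the same arrays. The normalized log2 ratios were 2.41, 2.45, 0.23, 2.15 and 1.80, so 4 livers stood close together and liver 3 stood near the reference. The mean was 1.81 ± 0.92 (SD, n = 5), which is 3.50-fold. Its limma adjusted p was 0.00848, and the probe ranked 24th of the 31887 by mean ratio. Without liver 1 the mean was 1.66 and the adjusted p 0.0615, so the call was lost. Over all 15 other settings the adjusted p lay between 0.000263 and 0.0615. Averaged over the arrays, the Hp probe was the 8th brightest of the array in Cy5 and the 81st in Cy3.

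Hpx, which takes up haem where Hp takes up haemoglobin, had raw Cy5 signals of 162047, 129058, 65324, 139920 and 92488 in livers 1 to 5, against 41212, 30466, 75355, 55981 and 86038 for the reference RNA. Its log2 ratios were 1.91, 2.05, -0.49, 1.51 and 0.54 in livers 1 to 5. Livers 1, 2 and 4 were high, liver 5 was intermediate and liver 3 lay below the reference. The mean of 1.10 ± 1.07 (SD, n = 5) was not called (limma adjusted p = 0.0693). It was called with spots marked as outliers kept (adjusted p = 0.0413), without an intensity trend and robust prior (0.0439) and without liver 3 (mean 1.50, adjusted p = 0.00569), and over all 15 other settings the adjusted p lay between 0.00569 and 0.265.

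The orosomucoids had nearly the same means, and each was lowest in liver 3 and next lowest in liver 5. Orm1 gave 1.75, 1.82, -0.55, 1.32 and 0.40 in livers 1 to 5, a mean of 0.95 ± 1.01. Orm2 gave 1.73, 1.63, -0.70, 1.88 and 0.32, a mean of 0.97 ± 1.12. Orm3 gave 1.80, 1.71, -0.60, 1.43 and 0.31, a mean of 0.93 ± 1.04 (SD, n = 5 each). None of the 3 was called, at limma adjusted p-values of 0.0907, 0.110 and 0.103. The range from the lowest to the highest liver was 5.17-fold for Orm1, 5.96-fold for Orm2 and 5.28-fold for Orm3, against 4.67-fold for Hp and 5.83-fold for Hpx.

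Apcs, the pentraxin that is the main inducible one in mice, had raw Cy5 signals of 13960, 11235, 5368, 13365 and 7816 in livers 1 to 5, against 3744, 2505, 3493, 4203 and 4402 for the reference RNA. Its log2 ratios were 1.90, 2.22, 0.40, 1.98 and 1.32. All 5 livers lay above the reference, with liver 3 again lowest. The mean was 1.56 ± 0.73 (SD, n = 5), or 2.96-fold (limma adjusted p = 0.00530), and the call held in each of 15 other settings, with adjusted p between 0.000562 and 0.0354.

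Crp and Cp were not tested, because the scanner software marked their Cy5 spots as non-uniform on 4 and 3 of the 5 arrays. A Cy5 mark on at least 3 arrays was carried by 2.11% of all probes. For Crp, the other pentraxin, liver 4 gave the single usable ratio, 0.55. With marked spots kept its mean was 0.71 ± 0.35 (SD, n = 5), above 0 at a limma adjusted p of 0.00433 and short of 2-fold. Without a 2-fold limit and without marked spots, 16.2% of all tested probes lay above 0 at an adjusted p under 0.05. In the authors' deposited table, which holds the Crp probe and not that of Cp, the Crp log2 ratios were 0.98, 1.23, 0.39, 0.60 and 0.65 in livers 1 to 5. For Cp, the copper-carrying ferroxidase, livers 2 and 4 gave usable ratios of 1.53 and 0.90. With marked spots kept its mean was 0.84 ± 0.64 (SD, n = 5), at a limma adjusted p of 0.0202, and also short of 2-fold.

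The 6 tested genes shared their pair of low livers. Liver 3 was lowest and liver 5 second lowest in 6 of 6. Of the 24009 probes with 5 values and both channels well above background throughout, 17.1% were lowest in liver 3 and 3.8% had both in that order. In 6 of 6, liver 3 lay at least 1 log2 unit below the mean of the other 4 livers, against 0.625% of those probes, and 4.36% of the 574 of them at least as bright as the Apcs probe. Their mean ratio was 1.91, 1.98, -0.29, 1.71 and 0.78 in livers 1 to 5. With marked spots kept, liver 3 was also lowest for Crp, whereas for Cp liver 5 (0.19) lay just below liver 3 (0.20).

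Leaving out liver 3 changed the calls for 4 genes. All 6 tested genes were then called higher, against 1.3% of all tested probes, with means of 2.20 for Hp, 1.50 for Hpx, 1.32 for Orm1, 1.39 for Orm2, 1.31 for Orm3 and 1.85 for Apcs. Their limma adjusted p-values lay between 0.000263 for Hp and 0.00870 for Orm3. Since liver 3 held the lowest ratio of each of the 6, leaving it out was bound to raise each mean. The gain in calls is therefore no separate result. The 1.3% covers all tested probes, whichever liver was lowest. Leaving out any other liver left between 1 and 2 of the 6 called, against 1.41% of all tested probes without liver 1, 1.03% without liver 2, 0.976% without liver 4 and 1.44% without liver 5.

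**Figure D2:**
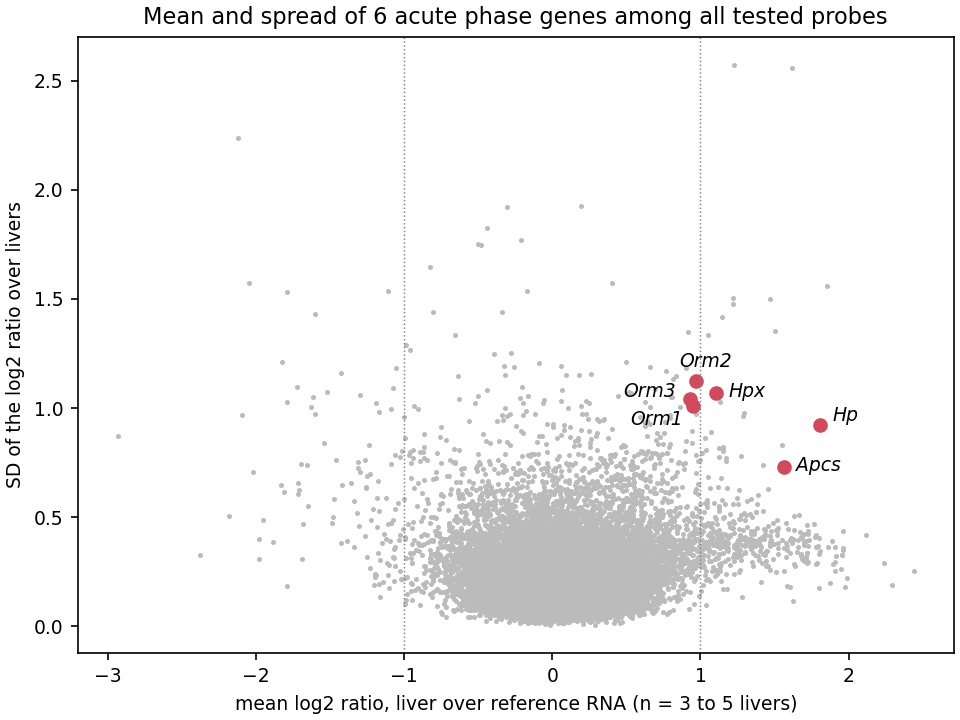
Mean log2 ratio of liver over reference RNA (horizontal axis) and its SD over livers (vertical axis) for the 31887 tested probes in grey, with the 6 tested genes in red. Dotted lines mark 2-fold, and Hp at 1.81 and Apcs at 1.56 lie farthest to the right of the 6.

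The spread over livers was compared with that of probes of like brightness, by an F test of the variance of each probe against limma's intensity-dependent prior variance. SDs of the 6 genes lay between 0.73 for Apcs and 1.12 for Orm2, against prior SDs of 0.17 to 0.18. By SD, Orm2 ranked 40th, Hpx 48th, Orm3 55th, Orm1 65th, Hp 94th and Apcs 248th of 24009 probes. None of the 6, and 0% of all probes, passed at an adjusted p below 0.05. Unadjusted p was between 0.000684 for Orm2 and 0.00500 for Apcs, and 5.19% of all probes lay below 0.05. Without liver 3 the SDs were 0.30 for Hp, 0.68 for Hpx, 0.65 for Orm1, 0.72 for Orm2, 0.68 for Orm3 and 0.38 for Apcs. The prior had only 4.73 degrees of freedom, which limits this test. With median centring in place of loess, 5 of the 6 passed (Apcs did not) and 99 of 24009 probes did. With the prior variance taken as fixed, an alternative chosen after seeing the data, 6 of 6 passed, as did 9.99% of all probes.

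Each channel was also read on its own, as the background-subtracted signal over the array median of its channel. In the liver channel, liver 3 was lowest for all 8 genes, by between -0.63 log2 units for Crp and -2.54 for Orm2 relative to the mean of the other 4 livers. Liver 3 was also lowest in this channel for 24.9% of the 24009 probes and for 43% of the 574 bright ones, so the count alone is not particular to these genes. It stood at least 1 log2 unit below the other livers for 7 of the 8 genes (all but Crp), against 5.57% of the 574 bright probes. The division matters here, since the Cy5 array median was 177 on the array of liver 3 and between 78.4 and 126 on the others. Before it, Crp in liver 3 (2462) lay above liver 1 (1937), and Cp in liver 3 (15755) lay above liver 5 (12318). The other 6 genes were lowest in liver 3 without the division as well. Orm2 signal was 427, 155, 29.2, 175 and 72.3 times the array median in livers 1 to 5, against 128, 58.9, 60.7, 54.9 and 59.9 times in the reference channel. The Cy3 reference, the same RNA on every array, had SDs of 0.06 for Crp and 0.10 for Cp on the log2 scale, and between 0.25 and 0.54 for the other 6. For Hp it moved most: the Cy3 signal on the array of liver 3 stood 1.08 above the mean of the other arrays, while the Cy5 signal stood at -1.09. Such a Cy3 shift of at least 1 was found for 1.39% of the 574 bright probes. Both shifts enter the low Hp ratio of liver 3, and after the division and before loess they were of like size. Without the division they were not. The Hp Cy5 signal was then 155718 in liver 3 and between 181554 and 221664 in the other livers. Its Cy3 signal was 108749 on the array of liver 3 and between 37938 and 69715 on the others. The part of each channel in that low ratio thus depends on the division, and it was not tested. The cause of the Cy3 shift was not tested. The Cy3 shift on that array was also upward for Hpx (0.50), Orm3 (0.38) and Orm1 (0.31), and it was 0.03 for Crp, -0.01 for Cp, -0.15 for Apcs and -0.22 for Orm2.

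**Figure D3:**
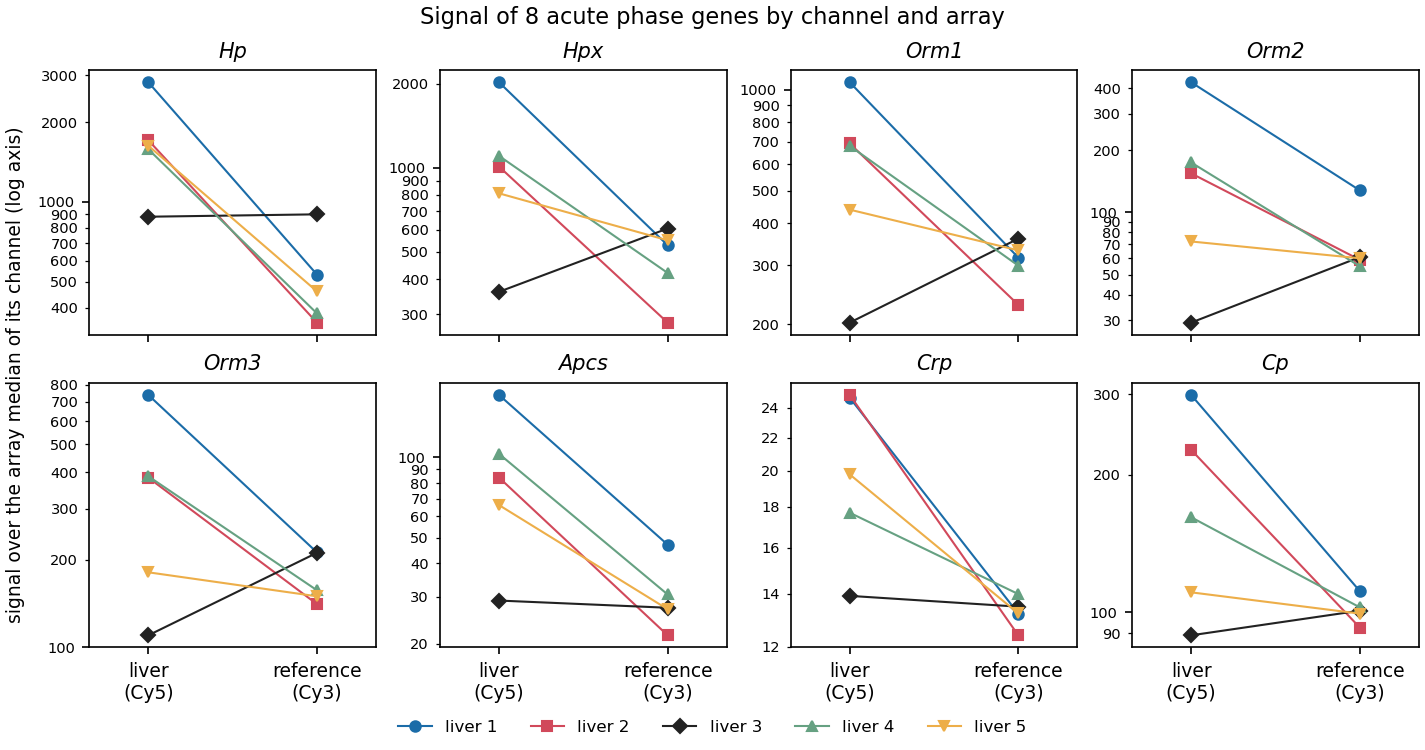
Signal over the array median of its channel (vertical log axis, scaled separately for each gene), liver channel on the left of each panel and reference channel on the right, with 1 line per array. Liver 3 is lowest in the liver channel of each panel, and its array is highest in the reference channel for Hp, Hpx and Orm1.

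Hpx and Orm1 were the pair closest to each other. Their log2 ratios differed by 0.16 ± 0.06 (SD, n = 5 arrays), between 0.06 and 0.23 on every array. The 2 genes belong to different protein families. Likeness was measured as the root mean square difference between log2 ratios of 2 genes, each centred on its own mean over the 5 livers, across 13699 named genes with 5 values. It is a description without a test. The 3 genes nearest to Hpx were Orm1 (0.06), Orm3 (0.10) and Orm2 (0.27), and those nearest to Orm1 were Hpx, Orm3 (0.09) and Orm2 (0.27). Nearest to Orm2 were Orm3 (0.20), Hpx and Orm1, and nearest to Orm3 were Orm1, Hpx and Orm2. Nearest to Hp were Apcs (0.25), the inter-alpha-trypsin inhibitor gene Itih4 (0.27) and Orm1 (0.28). Nearest to Apcs were Prtn3 (0.15), which encodes the granule protease proteinase 3, Espn (0.17), which encodes an actin-bundling protein, and Itih4 (0.18). Other genes outside the acute phase lists also lay near, and the following were named after their values were seen. Next nearest to Orm1 were Npsr1 (0.277) and Nlrp10 (0.278), ahead of Hp (0.279). For Hpx, Npsr1 (0.314), Nlrp10 (0.315), Fbxo8 (0.321) and Olfr411 (0.330) came after Hp (0.297). The pattern over livers was thus not confined to acute phase genes.

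Other acute phase proteins, from a list of 31 genes of which 26 were tested with 1 probe each, had 25 of 26 means above 0 and a median of 0.76. Of these, 5 were called higher and 0 lower, against 0.865% and 0.429% of 14917 named genes. They were Saa1, serum amyloid A1, at 1.85 ± 1.56 (limma adjusted p = 0.0455), Itih3 at 1.62 ± 0.12 (n = 3), the fibrinogen chain gene Fgb at 1.29 ± 0.96, complement C3 at 1.08 ± 0.34 and Ambp at 1.04 ± 0.54 (SD, n = 5 unless given). Fgb, C3 and Ambp were named after their values were seen. Their count was 13 without liver 3 and 1 without liver 1, with 2 without liver 2 and 3 each without liver 4 or 5. The list mean was 1.05, 1.54, -0.36, 0.59 and 0.76 in livers 1 to 5. Liver 3 was lowest in 22 of the 25 genes with 5 values, so leaving it out was bound to raise the means of those 22. The 6 tested genes above differed from this list in liver 4, where their mean was 1.71, a difference that was not tested.

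Proteins whose plasma levels fall in the acute phase had 9 of 10 tested means above 0 and a median of 0.51. Of these, 2 were called higher, albumin (Alb) at 1.15 ± 0.42 and fetuin A (Ahsg) at 1.72 ± 0.33 (SD, n = 5), against 0.865% of 14917 named genes. At an unadjusted limma p below 0.05, 8 of the 10 lay above 0 and 1 below. Among the 26 other acute phase proteins, 13 lay above and 0 below. The list mean of the 10 ran between 0.42 in liver 1 and 0.82 in liver 5, and liver 3, at 0.43, was lowest in 4 of 10 genes. None of the tested genes was called for interleukin 6 and interleukin 1 signalling (25, median -0.06), haem and haemoglobin handling (14, median -0.16), copper and ferroxidase handling (9, median -0.07) or pentraxin relatives and receptors (10, median -0.23). At an unadjusted limma p below 0.05, 4 of the signalling genes lay above 0 and 6 below, against 1 and 5 in haem handling, 2 and 1 in copper handling and 0 and 5 among the pentraxin relatives. Of the 14917 named genes, 20.4% lay above 0 and 20.9% below 0 at that threshold. The haem handling genes, which act beside Hp and Hpx, had means between -0.51 and 0.54.

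**Figure D4:**
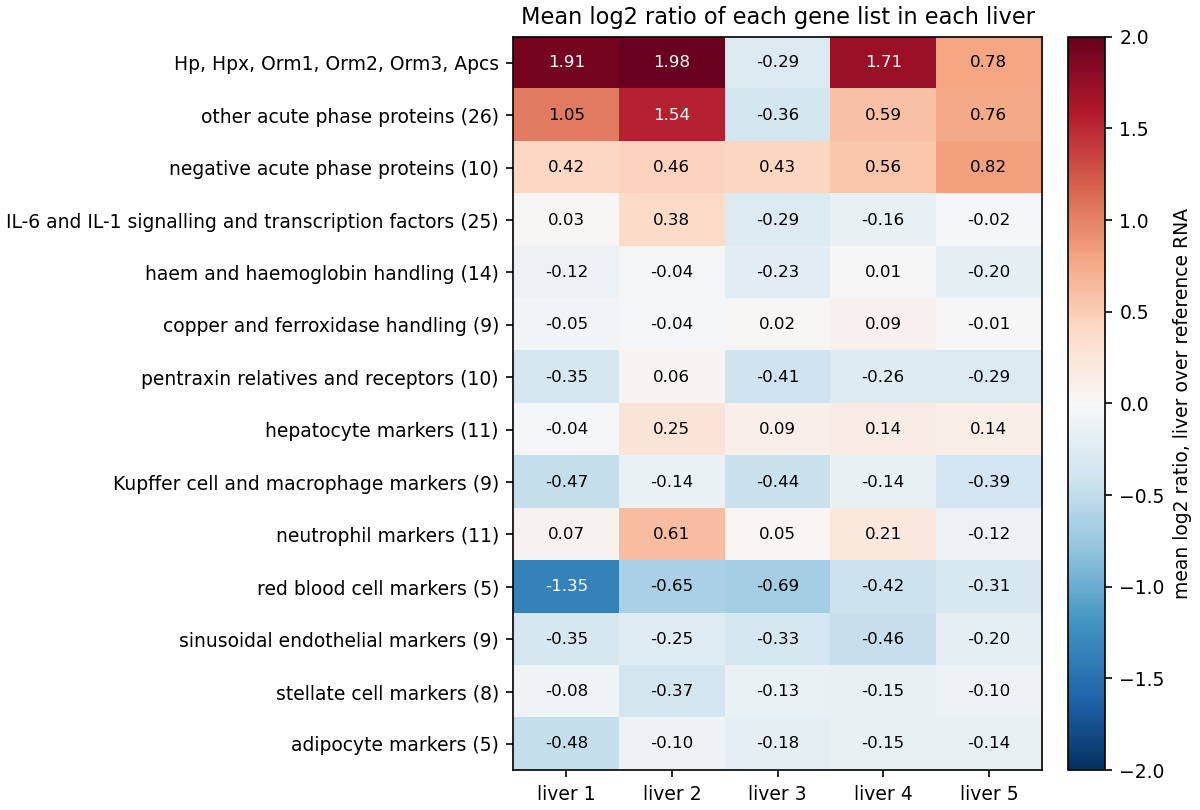
Mean log2 ratio of liver over reference RNA for the 6 tested genes (top row) and for 13 gene lists, with the number of tested genes in brackets, in each liver (columns). The top row and the other acute phase proteins are lowest in liver 3, at -0.29 and -0.36, as are interleukin signalling (-0.29), haem handling (-0.23) and pentraxin relatives (-0.41), which span less over the livers.

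Markers of other cells were set beside these values, since Hp is also made in neutrophils and fat cells. Neutrophil markers had 7 of 11 tested means above 0 and 0 called (4 above and 0 below 0 at an unadjusted limma p under 0.05), with list means of 0.07, 0.61, 0.05, 0.21 and -0.12 in livers 1 to 5. Their summed Cy5 signal lay between 3067 and 6811, and S100a8 was not well above background on every array. Adipocyte markers had list means between -0.48 in liver 1 and -0.10 in liver 2, a summed Cy5 signal of 384 to 1304, and Cfd called lower at -1.07 ± 0.54 (SD, n = 5, limma adjusted p = 0.00440). The other 4 of the 5 adipocyte markers were not called, with means between -0.29 for Retn and 0.27 for Lep. Red blood cell markers, tested for 5 genes, had list means of -1.35, -0.65, -0.69, -0.42 and -0.31 in livers 1 to 5 and a summed Cy5 signal of 4503 to 20346. Kupffer cell and macrophage markers had 1 of 9 means above 0, list means between -0.47 and -0.14 and a summed signal of 6867 to 9542. Sinusoidal endothelial markers, tested for 9 genes, had list means between -0.46 and -0.20, and stellate cell markers between -0.37 and -0.08. At an unadjusted limma p under 0.05, 0 red blood cell markers lay above 0 and 4 below. The counts were 0 and 6 for Kupffer cells and macrophages and 0 and 7 for sinusoidal endothelium. They were 2 and 2 for stellate cells and 1 and 2 for adipocytes, against 20.4% and 20.9% of the 14917 named genes. Among the 8 tested stellate cell markers the collagen gene Col1a1 was called lower, just past the 2-fold limit, at -1.002 ± 0.583 (SD, n = 5, limma adjusted p = 0.00798). The other 7 were not called, among them the collagen genes Col1a2 (0.23, n = 4) and Col3a1 (-0.09). Of the 14917 named genes, 0.429% were called lower. The part of any of these cells in the ratios of the 8 genes was not tested.

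**Figure D5:**
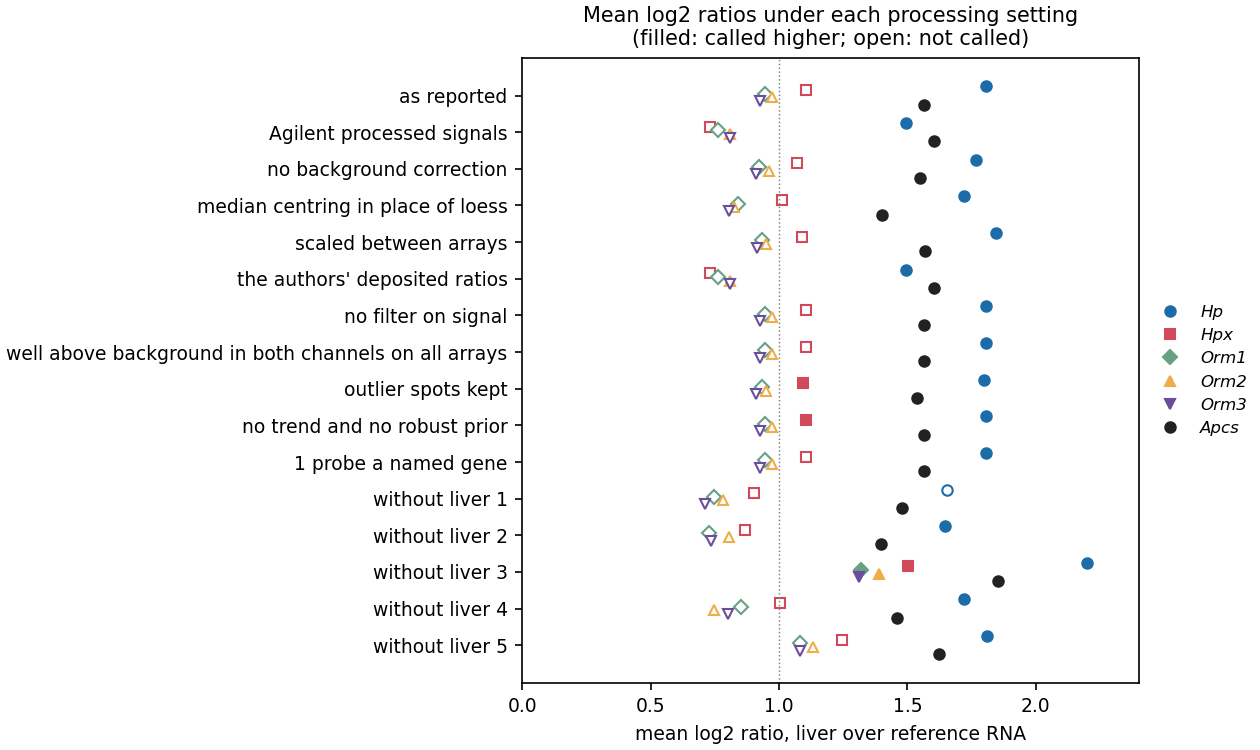
Mean log2 ratio of liver over reference RNA (horizontal axis) of the 6 tested genes as reported and under 15 other settings (rows), filled where called higher and open where not. Apcs is filled in every row, Hp in all but the one without liver 1, and all 6 are filled without liver 3.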

How the data were processed

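The 5 arrays were scanned and read by the software Agilent Feature Extraction (version 11.5.1.1), per the file headers. The deposited intensity values used here are median spot and local background signals, not normalized. The deposited processed intensities were background-subtracted and dye-normalized within the array, per the file headers, and the deposited log10 ratios are those of Cy5 over Cy3. The authors also deposited log2 ratios for 40599 probes, and 99.7% of those matched to a probe differed by under 0.001 from log2 of the processed intensity ratio, which settles scale and direction (liver over reference). Their column medians lay between -0.10 and -0.03.

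Median intensities were corrected with normexp (offset 50) and normalized by loess within each array in limma 3.58.1 under R 4.3.3, control and outlier spots at weight 0 and then left out (between 2.32% and 4.05% of spots per array). Probes were named through RefSeq accessions of assembly GRCm38.p6 (24375 of 41174). The headers name build mm8 for the array design, so no probe coordinates are given; the coordinates of upstream windows are RefSeq's on GRCm38.p6. The fit was an intercept with eBayes (trend, robust, two-sided), adjusted over all tested probes. The reference RNA has no spread of its own in this test, and a dye effect of a probe does not cancel, since no dyes were swapped. A gene of a list was represented by its brightest tested probe. Alternatives varied background correction, normalization, filter, outlier spots, prior, probe choice and the livers used. The scripts were tested on simulated data.

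Genes named are the 8 genes, per list up to 2 highest and 2 lowest called, and the 3 genes nearest to each tested gene. Genes, lists and tests were chosen with earlier results of these data known.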

Additional observations from a re-analysis of the deposited data

Results flagged for a closer look

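Albumin (Alb) was the 1 gene of 14 examined whose extreme liver stood far from the others, with a gap of 0.728 of its range against a 95% limit of 0.71 for 5 samples (Dixon's criterion). Its log2 ratio was 1.87 in liver 5 and between 0.78 and 1.08 in livers 1 to 4. Chance flags about 5% of such groups. Of the 6 tested genes of the report 0 passed the limit, and Hp came closest at 0.706, for its low value in liver 3.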

How the results depend on the processing

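The direction of all 6 means was kept in each of 15 other settings, and the calls that changed are given beside each gene in the report. Over these settings the means lay between 1.49 and 2.20 for Hp, 0.73 and 1.50 for Hpx, 0.73 and 1.32 for Orm1, 0.75 and 1.39 for Orm2, 0.71 and 1.31 for Orm3 and 1.40 and 1.85 for Apcs. With the scanner's processed signals and in the authors' deposited ratios, 1160 and 1166 probes were called higher (against 382) and 323 and 322 lower (against 102). With 1 probe a named gene, 14917 probes were tested in place of 31887, and the counts were 128 and 62. The share of tested probes called higher was then 0.858% in place of 1.2%, and 67.4% of calls were higher in place of 78.9%. Without each liver in turn, between 305 and 442 probes were called higher and 82 to 118 lower, and between 1 and 6 of the 6 genes were called higher.

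The test of spread called 99 probes and 5 of the 6 genes with median centring in place of loess, and 2398 probes (9.99%) and 6 of the 6 with the prior variance taken as fixed, an alternative chosen after seeing the data. Without each liver in turn it called 0. The prior of this test had 4.73 degrees of freedom as reported and 20.4 with median centring. With the prior variance taken as fixed, only these degrees of freedom changed, to no limit. Why median centring changed them was not tested.

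Other acute phase proteins called higher numbered 1 with processed signals, with median centring and in the deposited ratios, 3 without a filter on signal, and 1 to 13 without each liver in turn (against 5). Over all 13 lists, 2 genes were called higher with processed signals and in the deposited ratios, 3 with median centring and 3 to 16 without each liver in turn (against 7). Called lower were 0 without background correction, 4 with median centring, 1 with scaling between arrays and 1 to 3 without each liver in turn (against 2). The causes were not tested. A block for slide was not run, because each array had a slide of its own. No paired analysis was possible because there is 1 group.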

Other observations

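The interleukin signalling list held 2 genes with a wide spread over livers, named after their values were seen. Socs3, a feedback inhibitor of STAT3 signalling, had log2 ratios of 0.66, 1.53, -0.75, -0.25 and 0.30 in livers 1 to 5. Il1r1, the interleukin 1 receptor, had 0.60, 1.77, -1.95, -1.50 and 0.22. Both were lowest in liver 3, as were the 6 tested genes, and in liver 4, where the mean of the 6 was 1.71, both lay below 0. Neither mean was called (limma adjusted p = 0.491 and 0.834).

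Within the acute phase list the hepcidin gene Hamp, a hormone of iron balance, had the lowest mean, -0.66 ± 1.34 (SD, n = 5), with 1.64 in liver 2 and between -1.71 and -0.74 in the other 4.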
